A study of Mus musculus with 7 samples.

Results

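The genes described here make cholesterol and fatty acids. The list names 30 genes, 21 in a sterol arm and 9 in a fatty-acid arm, and a gene was taken up where a non-control probe of the array carries the identifier of one of its transcripts. By this rule 29 genes had a probe, 20 of the sterol arm and 9 of the fatty-acid arm, out of 22102 genes tested; Acat2 had none. The list is defined by function, and no measured value entered the rule.

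Gene expression had been measured in MIN6 cells, an insulin-secreting line derived from mouse pancreatic beta cells, after 3 days with Maidong polysaccharide extract (MPE, 4 arrays) or with its vehicle, phosphate-buffered saline (PBS, 3 arrays). Both groups come from the same line in the same medium, and the labels name no genotype, no dose for the arrays and no separate cultures, so that a p-value here reflects the scatter of these samples alone, possibly of technical origin. The slide was the same for all 7 arrays; the MPE arrays filled its second row and the vehicle arrays its first, and treatment and row cannot be told apart. Per array, 27944 to 28514 of 56605 probes were well above background (the scanner software's flag) with MPE, against 29501 to 30122 with vehicle. The 7 beta-cell markers were well above background on every array, and so were Gcg, Sst and Ppy, hormones of other islet cell types. The hepatocyte markers Alb and Apoa1, the adipocyte marker Plin1 and the stromal marker Col1a1 were so on none. Nor were the exocrine and duct markers Cpa1 and Sox9. The duct marker Krt19, the adipocyte marker Adipoq, the stromal marker Dcn and the immune marker Ptprc were so on 1 or 2 arrays each, and the exocrine marker Cel on all 7.

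Cells build cholesterol from acetyl-CoA through mevalonate, isoprenoids, squalene and lanosterol. Fatty acids are built from the same acetyl-CoA by carboxylation, repeated condensation, elongation and desaturation. Both arms are under sterol regulatory element-binding proteins (SREBPs), membrane-bound transcription factors. When sterols are low SREBPs are carried to the Golgi and cut, which frees the part that enters the nucleus, and when sterols are high INSIG proteins hold them in the endoplasmic reticulum. SREBP-2, the product of Srebf2, acts mainly on the sterol genes, and SREBP-1c, a product of Srebf1, mainly on the fatty-acid genes. A cell short of sterol typically raises the sterol genes as a block, which makes the list a readout of sterol supply. In beta cells, cholesterol is a known constituent of insulin granules and of the membrane where they fuse.

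The stretch before a gene's start is where SREBPs bind, together with the factors NF-Y and Sp1. RefSeq promoter windows of assembly GRCm38.p6, from 250 bases before the start to 50 bases after it, were at hand for 23 of the 30 genes (28 windows). Both strands were searched for the sterol regulatory element TCACNCCAC, the NF-Y box CCAAT and the Sp1 box GGGCGG. Selected windows are shown, 5′ to 3′ on the strand of the gene. That of Hmgcs1 (chr13:119690101-119690400, plus strand) is the one that holds the sterol element in the form searched. That of Mvk (chr5:114444019-114444318, plus strand) belongs to the one gene whose MPE and vehicle arrays did not overlap. Every MPE array was lower for Mvk, as for 3.38% of all genes, and a link to its window was not tested. The window of Fasn (chr11:120824498-120824797, minus strand) stands for the fatty-acid arm. Capitals mark the sterol element and the NF-Y boxes, which read ATTGG where the box is on the opposite strand.
Hmgcs1: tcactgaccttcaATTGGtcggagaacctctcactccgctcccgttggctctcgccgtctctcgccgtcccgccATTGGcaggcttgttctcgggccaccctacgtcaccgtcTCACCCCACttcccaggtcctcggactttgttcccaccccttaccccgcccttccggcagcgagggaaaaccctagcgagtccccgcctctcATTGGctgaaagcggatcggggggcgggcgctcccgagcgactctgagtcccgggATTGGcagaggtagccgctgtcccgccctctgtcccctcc
Mvk: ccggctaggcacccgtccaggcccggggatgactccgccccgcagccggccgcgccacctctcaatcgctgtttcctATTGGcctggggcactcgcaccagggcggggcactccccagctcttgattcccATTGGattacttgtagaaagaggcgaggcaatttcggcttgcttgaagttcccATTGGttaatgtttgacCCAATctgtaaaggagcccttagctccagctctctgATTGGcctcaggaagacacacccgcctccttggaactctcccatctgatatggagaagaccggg
Fasn: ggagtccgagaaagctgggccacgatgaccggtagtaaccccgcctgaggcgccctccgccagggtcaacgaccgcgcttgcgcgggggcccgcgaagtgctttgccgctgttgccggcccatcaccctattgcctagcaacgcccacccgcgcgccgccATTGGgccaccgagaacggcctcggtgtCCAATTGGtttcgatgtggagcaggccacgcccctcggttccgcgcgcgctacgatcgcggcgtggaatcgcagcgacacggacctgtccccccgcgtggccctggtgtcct
The sterol element of Hmgcs1 began 137 bases before the start. It was found in 1 of 23 genes (1 of 28 windows), against 1.24% of all 32851 windows. Forms of the element that differ from these letters were not searched, so their presence in the other windows is not known. NF-Y boxes were found in 19 of 23 genes (20 of 28 windows), against 37.4% of all windows, with 5 copies in the window of Mvk, 4 in that of Hmgcs1 and 3 in that of Fasn, a pair of which overlap. Sp1 boxes were found in 19 of 23 genes (21 of 28 windows), against 35.7% of all windows. These matches describe the letters of the windows and show no binding in MIN6 cells.

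Both arms were expressed in MIN6 cells. All 29 genes were well above background on all 7 arrays, with no value missing, and 26 of them (17 sterol, 9 fatty-acid) lay above the array's 75th percentile of all probes on every array. The exceptions were the sterol genes Nsdhl, Dhcr7 and Srebf2. The count rests on each gene's brightest probe, while the percentile is over all probes, and it was not set beside the share of all genes tested. A dimmer kept probe of each of Acaca, Cyp51, Fads1, Fads2, Hsd17b7, Lss, Mvk and Stard4 lay below the percentile on every array. Levels are given throughout as the log2 of the processed signal minus that percentile, so that 0 is the percentile and the scale counts doublings; they compare a gene between arrays and not one gene with another.

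No gene of either arm differed between MPE and vehicle by limma's moderated test. At a Benjamini-Hochberg adjusted p under 0.05 over all genes tested, 0 of 29 genes were higher and 0 were lower, against 0.00452% and 0.0% of all genes, and the adjusted p was 1 for each of the 29. At an unadjusted p under 0.05 the count was again 0 in both directions, where 0.765% of all genes were higher and 3.35% lower. The median log2 difference, MPE minus vehicle, was -0.01 in the sterol arm (8 genes above 0 and 12 below, from -0.14 to 0.05) and -0.02 in the fatty-acid arm (3 above and 6 below, from -0.12 to 0.23), beside -0.02 for all genes. Differences below 0 were found for 18 of 29 genes, against 57.7% of all genes, and for 28 of 29 when each array was scaled to its median, which moved the median of all genes from -0.016 to -0.086.

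The measurement was narrow for most of these genes. For 28 of 29 genes the 95% interval stayed inside 1.5-fold either way, against 80.6% of all genes, and inside 1.3-fold for 25 of 29, against 63.8%. The genes outside the narrower bounds were Dhcr7, Srebf2, Scd1 and Fads1, and Srebf2 was also outside the wider ones. The median spread between arrays of a group (pooled SD, log2) was 0.099 in the sterol arm and 0.091 in the fatty-acid arm, against 0.123 over all genes.

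**Figure D1:**
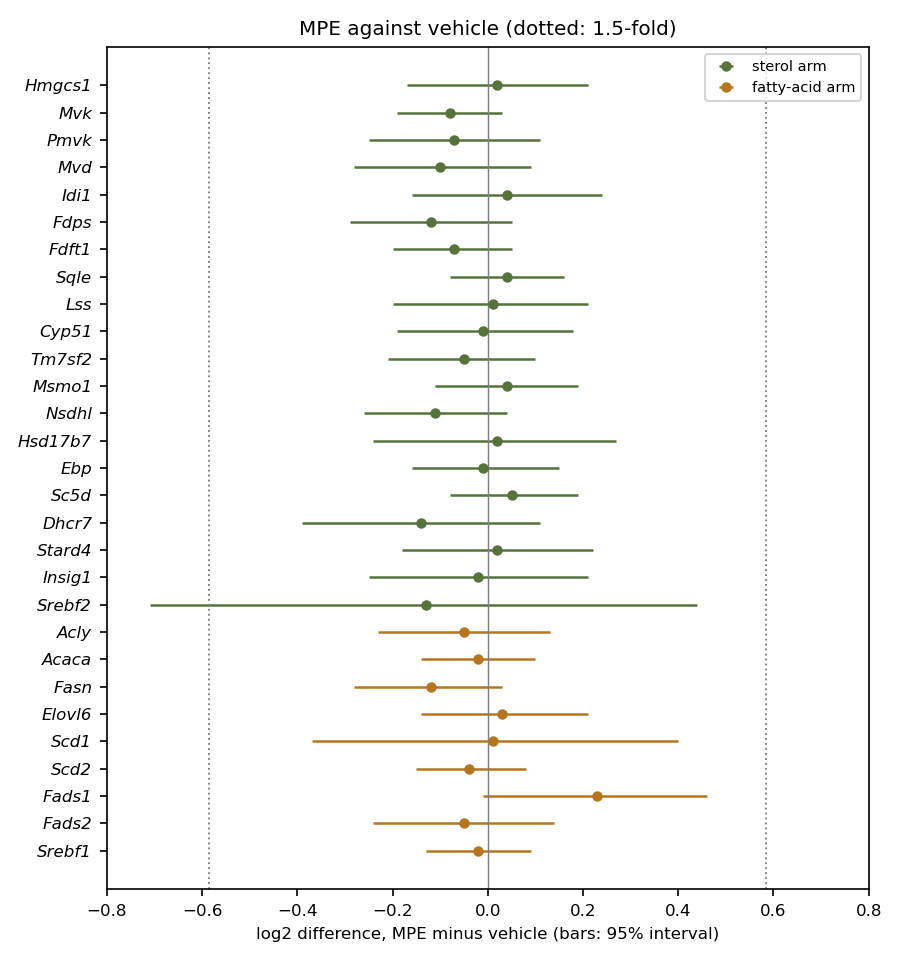
Log2 difference, MPE minus vehicle (horizontal axis), of 20 sterol genes (green) and 9 fatty-acid genes (orange); points are limma estimates, bars are 95% intervals and dotted lines mark 1.5-fold. Every interval includes 0, and that of Srebf2 alone crosses a dotted line.

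The early sterol enzymes lead from acetyl-CoA to squalene. Hmgcs1, the synthase that makes HMG-CoA, had levels of 3.91, 3.89, 4.11 and 4.04 on the MPE arrays, against 3.94, 3.90 and 4.07 on the vehicle arrays. The groups overlapped over almost their whole ranges, and the MPE level was 1.02 times that of vehicle (95% interval 0.892 to 1.16). Mvk, mevalonate kinase, had 3.64, 3.61, 3.58 and 3.63 with MPE, against 3.70, 3.71 and 3.66 with vehicle. Mvk was the one gene of 29 whose groups did not overlap, with every MPE array lower, against 3.38% of all genes in that direction; 0 of 29 had every MPE array higher, against 1.19% of all genes. Its difference was small, 0.949 times vehicle (0.879 to 1.02; adjusted p = 1 by limma), and the log2 difference of the second probe, with overlapping groups, was also -0.08. The next kinase Pmvk, the decarboxylase Mvd and the isomerase Idi1 stood at 0.952, 0.936 and 1.03 times vehicle. Fdps, which makes farnesyl diphosphate, had 4.40, 4.47, 4.29 and 4.33 with MPE, against 4.57, 4.53 and 4.39 with vehicle. The lowest vehicle array lay among the MPE arrays, and the difference was -0.12 (SE 0.07, limma adjusted p = 1). Fdft1, squalene synthase, stood at 0.950 times vehicle by its brighter probe, and its second probe had a log2 difference of the other sign, 0.07.

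The later enzymes close the rings and trim lanosterol to cholesterol. Sqle, the epoxidase that is a known control point, had 5.04, 5.00, 5.00 and 4.94 with MPE, against 4.90, 4.98 and 4.97 with vehicle. Its interval was among the narrow ones, at 1.03 times vehicle (0.947 to 1.12). Lss, which folds squalene epoxide into lanosterol, had 2.00, 1.96, 2.20 and 2.18 with MPE, against 1.99, 2.05 and 2.19 with vehicle, and the group means were equal to 2 decimals at 2.08 ± 0.12 (SD, n = 4) for MPE and 2.08 ± 0.10 (SD, n = 3) for vehicle. The demethylase Cyp51, the reductase Tm7sf2, the methyl oxidase Msmo1, the isomerase Ebp and the desaturase Sc5d lay between 0.963 and 1.04 times vehicle. Nsdhl, which works in the removal of methyl groups, had -0.13, -0.03, -0.04 and -0.05 with MPE, against 0.13, 0.07 and -0.07 with vehicle. Only the third vehicle array lay among the MPE arrays, and the log2 difference was -0.11 (SE 0.06; adjusted p = 1 by limma). Hsd17b7, which acts beside Nsdhl, stood at 1.01 times vehicle. Dhcr7, which makes cholesterol from 7-dehydrocholesterol, had -0.01, 0.09, -0.17 and 0.07 with MPE, against 0.23, 0.24 and -0.08 with vehicle. Here too the third vehicle array lay low while the other 2 were above all MPE arrays, and the difference of -0.14 was the lowest of the 29 (SE 0.11, 0.910 times, 0.765 to 1.08).

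The last members of the sterol arm carry or sense sterol. Stard4, a soluble sterol carrier, had 1.42, 1.33, 1.59 and 1.56 with MPE, against 1.35, 1.45 and 1.57 with vehicle, a difference of 0.02 (SE 0.09). Its second probe, near the dim end, had a difference of 0.36 (SE 0.19, 95% interval -0.08 to 0.80), so that the probes disagreed in size. Insig1, the sterol-regulated anchor of SREBPs, had 0.97, 0.94, 0.74 and 0.70 with MPE, against 0.93, 0.94 and 0.71 with vehicle. In each group the values fell into a higher and a lower set, and the sets matched between the groups; the MPE level was 0.985 times vehicle (0.840 to 1.16). Srebf2 had -0.60, -0.22, -0.79 and -0.91 with MPE, against 0.02, -0.73 and -0.77 with vehicle. It had the widest interval of the 29, at -0.13 (SE 0.24, -0.71 to 0.44), and without the first vehicle array, which stood above all others, the difference was 0.12.

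In the fatty-acid arm, Acly supplies cytosolic acetyl-CoA by splitting citrate. It had 8.98, 8.87, 8.78 and 8.86 with MPE, against 9.01, 8.95 and 8.79 with vehicle, and stood at 0.968 times vehicle, with a log2 interval of -0.23 to 0.13. The group ranges were almost the same. Acaca, the carboxylase that makes malonyl-CoA, had 3.73, 3.70, 3.67 and 3.70 with MPE, against 3.76, 3.74 and 3.66 with vehicle. It had one of the narrowest intervals, at 0.986 times (0.908 to 1.07). Fasn, the synthase that assembles palmitate, had 5.92, 5.93, 5.83 and 5.78 with MPE, against 5.90, 6.04 and 6.03 with vehicle. All MPE arrays were below vehicle arrays 2 and 3, while the first vehicle array lay among them, and the difference was -0.12 (SE 0.07, 0.917 times, 0.823 to 1.02, limma adjusted p = 1).

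Elongation and desaturation follow. The elongase Elovl6 stood at 1.02 times vehicle (0.908 to 1.16). Scd1, a stearoyl-CoA desaturase that makes monounsaturated fatty acids, had 0.90, 1.07, 0.54 and 0.61 with MPE, against 1.02, 0.67 and 0.60 with vehicle. Its arrays were spread over about the same range in both groups, and at 1.01 times vehicle its interval ran from 0.773 to 1.32. Its paralog Scd2 had 6.69, 6.67, 6.59 and 6.66 with MPE, against 6.68, 6.70 and 6.69 with vehicle, at 0.975 times (0.901 to 1.06). Fads2, which desaturates the chains of essential fatty acids, stood at 0.967 times. Srebf1 had 6.10, 6.05, 6.07 and 6.08 with MPE, against 6.09, 6.12 and 6.07 with vehicle, at 0.985 times (0.913 to 1.06), and its values were among the steadiest of the list.

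Fads1, the delta-5 desaturase that acts after Fads2, had the largest difference of the 29 genes in either direction. Its levels were 3.00, 3.08, 3.27 and 3.18 with MPE, against 2.75, 2.89 and 3.08 with vehicle, which is 1.17 times (0.994 to 1.38; log2 difference 0.23, SE 0.10, limma adjusted p = 1). The groups overlapped at the third vehicle array, while MPE was higher in each of the 3 slide columns that hold both groups. A second, dimmer probe of Fads1 had -0.82, -0.67, -1.34 and -1.27 with MPE, against -0.81, -0.82 and -1.14 with vehicle. Its difference was -0.10 (SE 0.19), of the other sign, so that the 2 probes of the gene do not give one direction.

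**Figure D2:**
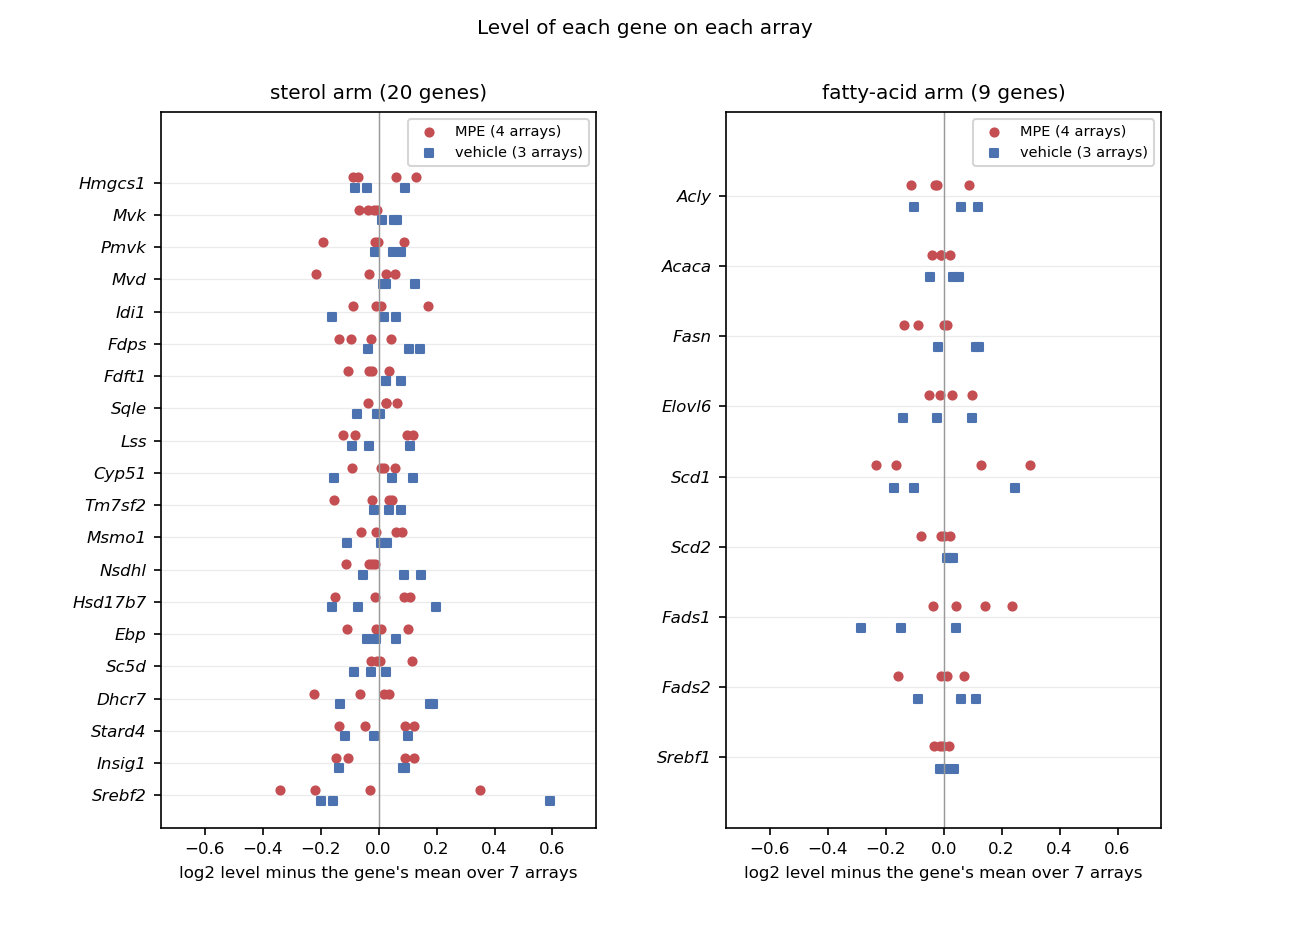
Log2 level of each gene on each array minus the gene's mean over 7 arrays (horizontal axis), for the sterol arm (left) and the fatty-acid arm (right); red circles are the 4 MPE arrays and blue squares below them the 3 vehicle arrays. The groups overlap for every gene but Mvk, and Srebf2 and Scd1 are the most spread.

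Several probes were kept for 14 genes and 1 probe for the other 15. The log2 differences of a gene's probes had opposite signs in 5 of the 14, Acaca, Ebp, Fads1, Fads2 and Fdft1, with rounded values of -0.05 to 0.05 for Acaca, Ebp and Fads2. The gap between probes was 0.34 for Stard4 and 0.33 for Fads1, and between 0.00 and 0.14 for the other 12. The brightest probe of a gene is the one used above.

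**Figure D3:**
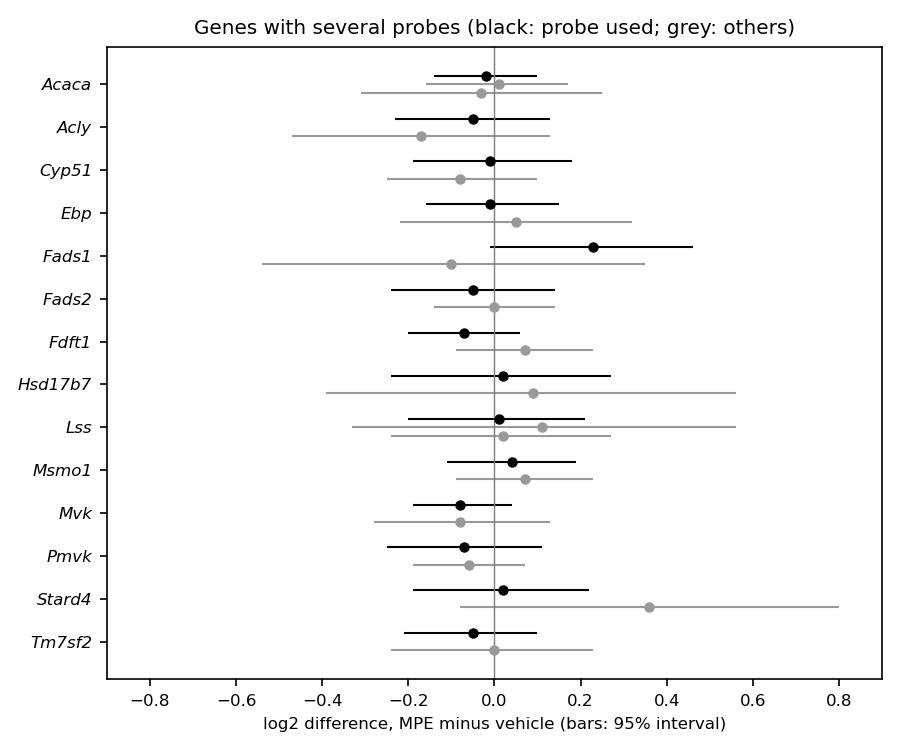
Log2 difference, MPE minus vehicle (horizontal axis), of each kept probe of the 14 genes with several; black is the probe used, grey the others, and bars are 95% intervals. Every interval includes 0, and the probes of Stard4 and Fads1 lie farthest apart.

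The level of each arm was also summarised per array. After subtracting each gene's mean over the 7 arrays, the median of the sterol arm was -0.017, -0.008, -0.009 and -0.014 on the MPE arrays, against 0.007, 0.048 and 0.012 on the vehicle arrays. For the sterol arm the groups did not overlap, with all 4 MPE arrays lower than the 3 vehicle arrays. The mean of these medians was -0.012 with MPE and 0.022 with vehicle, a difference of -0.034, against an SD of 0.015 between arrays of a group. The closest arrays of the groups stood at -0.008 and 0.007, and vehicle array 2, at 0.048, lay farthest out. The gap amounts to a few hundredths of a log2 unit, and the median difference of the sterol genes was -0.01. How often other sets of genes separate in this way was not examined, and no test was made of an arm. For the fatty-acid arm the array medians were 0.019, 0.005, -0.078 and -0.011 with MPE, against 0.012, 0.035 and -0.013 with vehicle. The groups overlapped, with a difference of means of -0.028 and an SD of 0.037. Over all genes the same difference was -0.017, again with overlapping groups. In the 3 slide columns that hold 1 array of each group, the median difference of the sterol genes was 0.014, -0.053 and -0.023, that of the fatty-acid genes 0.007, -0.030 and 0.010, and that of all genes -0.015, -0.019 and -0.017. Fads1 was higher with MPE in all 3 columns, Hmgcs1, Mvk and Fdps were lower in all 3, and the other 25 genes were mixed. The share of all genes with the same sign in all 3 columns was not computed, so these counts are a description. For Hmgcs1 the column differences were -0.02, -0.00 and -0.03, while its difference over all 7 arrays was 0.02.

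Within the arms, genes varied across the arrays with both signs. With group means removed, the mean Pearson r over pairs of genes was -0.03 within the sterol arm, 0.07 within the fatty-acid arm and 0.04 between the arms, beside 0.005 over all pairs of genes tested; each r is over 7 arrays of 1 slide and serves as a description. Taken without its sign, r averaged 0.51 within the sterol arm, 0.54 within the fatty-acid arm and 0.56 between the arms, beside 0.44 over all pairs, so that pairs of opposite sign offset each other in the first means. Single pairs reached large values of both signs. Hmgcs1 and Lss had r = 0.94, while Hmgcs1 and Insig1, both known targets of SREBP-2, had r = -0.94. The values of these genes also separated fully by slide column, as given below. Hmgcs1 and Lss were higher in columns 3 and 4, and Insig1 was lower. The part of the columns in these r values was not tested. Between arrays, r over the 29 genes was 0.9959 to 0.9989 within MPE, 0.9944 to 0.9982 within vehicle and 0.9929 to 0.9993 between the groups.

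Between slide columns, most listed genes differed with the same sign in both groups, as most of all genes did. MPE arrays 3 and 4 and vehicle array 3 lay in columns 3 and 4, and the other arrays in columns 1 and 2. Insig1 was lower in columns 3 and 4 by the same log2 difference in both groups, -0.23 with MPE and -0.23 with vehicle. Hmgcs1 was higher there, by 0.18 with MPE and 0.16 with vehicle, and Lss by 0.21 with MPE and 0.17 with vehicle. Srebf2 differed by -0.44 with MPE and -0.41 with vehicle, and Scd1 by -0.41 with MPE and -0.25 with vehicle. These were larger than any MPE difference of the list, but in vehicle they rested mainly on array 1. Srebf2 stood at 0.02 on it, against -0.73 and -0.77 on vehicle arrays 2 and 3. Scd1 stood at 1.02, against 0.67 and 0.60. Every array of columns 3 and 4 was above every array of columns 1 and 2 for 4 of 29 genes (Hmgcs1, Lss, Hsd17b7 and Stard4), against 11.7% of all genes, and below for 7 of 29 (Fdps, Tm7sf2, Insig1, Srebf2, Acly, Scd1 and Fads2), against 16.1%. Both groups had the same sign for 16 of 20 sterol genes (80.0%) and 8 of 9 fatty-acid genes (88.9%), against 70.9% of all genes. With 1 vehicle array in the later columns this is a description, and what differs between the columns was not tested. The columns divide the arrays exactly as replicates 1 and 2 against 3 and 4 do, so column and replicate number cannot be told apart.

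**Figure D4:**
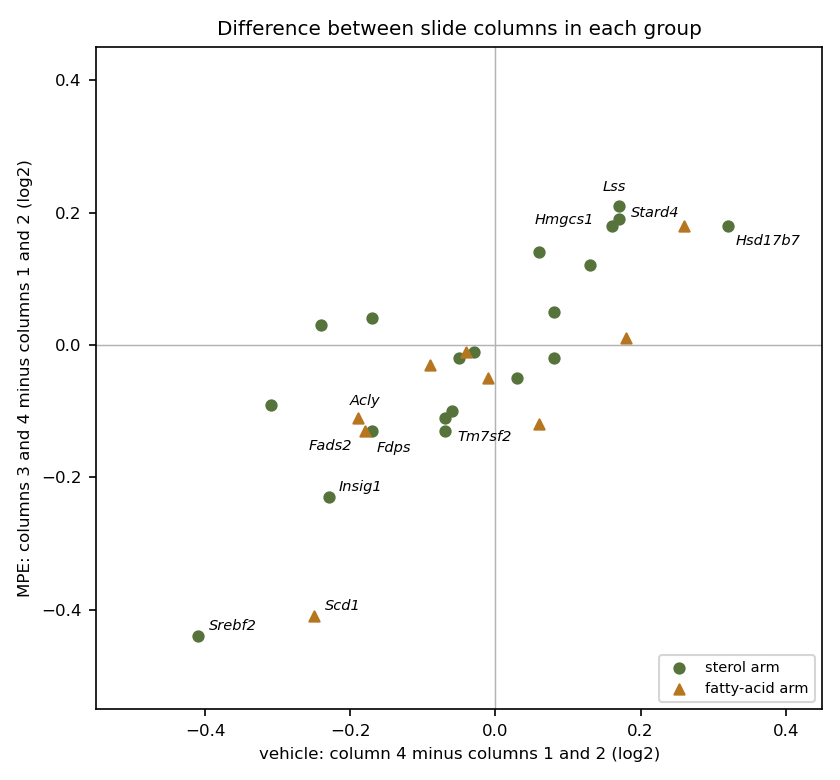
Log2 level in slide columns 3 and 4 minus that in columns 1 and 2, in the MPE arrays (vertical axis) and in the vehicle arrays (horizontal axis, where column 4 holds the 1 later array); green circles are sterol genes, orange triangles fatty-acid genes, and names mark the 11 genes whose columns do not overlap. Most points lie at the lower left and upper right, where the groups share a sign.

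Differences were also set beside the place of a probe within the array. Kept probes of the listed genes in array rows up to 192 had a median log2 difference of 0.017 (9 of 22 below 0), and those in later rows -0.036 (16 of 23 below 0), beside -0.001 (50.4% below 0) and -0.028 (63.3% below 0) for all kept probes. Among genes tested at the level of the dimmest listed gene or above, the medians were closer, -0.007 in the earlier rows and -0.015 in the later ones. The brighter Fads1 probe lay in row 92 and its dimmer one in row 378. Isolated bright spots, defined as over 8 times the average that the same spot had on its 3 lowest arrays, were 525 to 702 per MPE array and 89 to 181 per vehicle array, and 0 of them were spots of these genes. The part of array place in these differences was not tested.

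The rest of the pathway held no gene past a threshold either. Among other sterol genes, which cover the last reductase, SREBP processing and INSIG-linked turnover, 14 of 15 were tested, with 7 above 0, 7 below 0 and 0 past the adjusted or the unadjusted threshold. Among other fatty-acid genes 25 of 27 were tested, with 12 above 0, 13 below 0 and 0 past either threshold, and the elongases Elovl2 and Elovl3 had no array well above background. Among genes of sterol export, storage and sensing 11 of 12 were tested, with 5 above 0, 6 below 0 and 0 past either threshold; Ch25h, which makes a signalling hydroxysterol, had no array well above background. The beta-cell markers had a median of -0.07, beside -0.02 for all genes, with 0 past either threshold. Below 0 were 7 of 7, against 57.7% of all genes, and every 95% interval included 0. For Ins1, Ins2 and Iapp, the lowest of them, vehicle array 3 lay among the MPE arrays. Cel, a lipase of exocrine cells and 1 of 4 exocrine and duct markers, was the one gene of these lists with an unadjusted p under 0.05, at -2.23 ± 1.11 (SD, n = 4) for MPE and -3.86 ± 0.23 (SD, n = 3) for vehicle (limma adjusted p = 1). Its groups overlapped, with MPE array 3 at -3.67 and the vehicle arrays at -4.08, -3.86 and -3.63. Of all genes, 4.12% had an unadjusted limma p under 0.05.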

How the data were processed

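Per the labels' protocols, 100 ng of total RNA per sample was labelled with Cy3 and hybridized to 1-colour Agilent mouse arrays. The deposited scanner files hold spot intensities; per the file headers, the processed intensity was background-subtracted and detrended by Agilent Feature Extraction 11.5.1.1 (10.5.1.1 per the submitters' processing notes). The authors' deposited value table holds 1 log2 value per probe, with a median of 4.438 on every array, and its columns correlated with log2 intensity at 0.9996 or more. The flags deposited with the intensities (other) mark control, outlier and well-above-background spots.

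Controls and 611 values with an outlier flag were dropped, and saturation was not met. Each probe's mean log2 processed intensity was set against the 75th percentile of its array. The filter asked for 3 or more arrays well above background (28943 probes passed), and a gene was represented by its probe with the highest mean. Symbols came from RefSeq transcripts (GRCm38.p6) and matched 32994 of 56605 probes, for naming alone. Of the listed genes' 46 probes, 45 were kept; the other was a probe of Acaca.

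The comparison of MPE with vehicle used lmFit and eBayes (limma 3.58.1, R 4.3.3), a single treatment term and Benjamini-Hochberg adjustment over 22102 genes. The fit was tested on simulated data. All listed genes are named; of other genes, those with an unadjusted p under 0.05, the markers, and genes of the fixed lists without signal. Members, lists and tests were chosen with earlier results of these data known. Other scalings, filters, probe rules, variance models, blocks and each array left out were tried. The number of arrays limits the precision.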

Additional observations from a re-analysis of the deposited data

Results flagged for a closer look

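Of the 29 genes checked for an array far from the other MPE arrays, 2 had one, where chance would give about 1 in 20 groups. Nsdhl stood at -0.13 on MPE array 1, with the other MPE arrays up to -0.03. Sc5d stood at 3.49 on MPE array 3, with the other MPE arrays down to 3.35. The vehicle group, with 3 arrays, was not checked.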

How the results depend on the processing

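The count of listed genes past the adjusted threshold was 0 under all 21 alternatives, and their smallest adjusted limma p ranged from 0.227 (no filter, Fads1) to 1. Of 609 gene values under the alternatives, 80 turned sign, 0 to 10 of 29 genes per alternative, with 10 under median scaling and 10 without vehicle array 1; 21 of the 29 genes lay within 1 SE of 0 to begin with. The dimmest probe of a gene gave 0.067 for Fdft1 and -0.099 for Fads1, the 2 turns in which both values lay at least 1 SE of the brighter probe from 0; another probe is read there. At an unadjusted p under 0.05, 0 to 3 of 29 genes passed per alternative, where 2.76% to 8.62% of all genes did with a filter and 27.0% without one: Fads1 with the filter on all 7 arrays, a trended robust variance, array weights, the slide column as a block, and without MPE array 1, Fasn without isolated bright spots and without vehicle array 1, and Fads1, Dhcr7 and Nsdhl (10.3%, against 5.48% of all genes) without vehicle array 3. The median log2 difference of the sterol arm (-0.013) was -0.083 with median scaling, 0.009 with the dimmest probe, -0.051 without isolated bright spots and -0.064 to -0.013 with each array left out. That of the fatty-acid arm (-0.023) was -0.092 with median scaling, -0.061 without isolated bright spots, and -0.050 to -0.005 with each array left out. The median of all genes (-0.016) moved too, to -0.086 with median scaling and to -0.054 without isolated bright spots. The cause was not tested. The labels give the replicate numbers no meaning, though same-numbered arrays 1 and 2 also share a slide column. Deviations of same-numbered arrays correlated at 0.248, 0.051 and 0.413, so the pairing was not used, and with the replicate block 0 listed genes were called, with Fads1 at 0.210 (unadjusted limma p = 0.0124, adjusted 0.488) and Dhcr7 also under 0.05 unadjusted. Over all genes 0 to 4 were called higher and 0 to 2 lower per setting with a filter, and 9648 higher and 348 lower without one, where dim probes enter. Normexp was run on the median spot intensity, as the planned mean is not used here. Proteins of paralogous genes were not analysed here.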
